A study of Mus musculus with 2 samples.

Results

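Small nucleolar RNAs (snoRNAs) with reads in chromatin-bound RNA of restimulated macrophages are described here. The members were the genes of the snoRNA class with an alignment-based expected count of at least 1 in both libraries, which left 72 of 1507 annotated snoRNA genes, or 4.78%, in a table of 55536 annotated genes, of which 33.2% met the same minimum. The members were chosen by these counts, so the counts below are a description and no test was made on them. By symbol, 4 of 98 Snord entries (box C/D class), 20 of 42 Snora entries (box H/ACA class) and 48 of 1367 entries with another symbol were members. The cells were bone-marrow-derived macrophages of strain C57BL/6J, a primary culture grown from mouse marrow, whose age and sex the labels do not give. All cells received 100 ng/ml lipid A, the part of bacterial endotoxin that Toll-like receptor 4 detects, for 12 h, then 12 h of washout, and 100 ng/ml again for 75 min. There was 1 group of 2 biological replicates with the same donor entry, made from 250 ng and 500 ng of ribosome-depleted RNA, and no untreated group was analysed here. Values with ± are means and SDs (n = 2), and the SD measures only the spread between these libraries, which may be technical.

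snoRNAs are short noncoding RNAs that work with a fixed set of proteins in the nucleolus. Box C/D RNAs carry a C box (TGATGA in the DNA) near the start and a D box (CTGA) near the end, and guide ribose methylation of ribosomal RNA. Box H/ACA RNAs end in ACA and a short tail and guide the change of uridine to pseudouridine. Small Cajal body RNAs (scaRNAs) guide both kinds of change in spliceosomal RNAs. Most mammalian snoRNAs are cut from introns of a host gene after splicing. A few, such as U3, U8, U17 and U22, are needed for cleavage of the ribosomal precursor.

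The sequences below were read from the GENCODE M21 transcripts on mm10 and are printed 5′ to 3′ as DNA. Capitals mark TGATGA within the first 20 bases and CTGA within the last 20, and, in the H/ACA group, ACA 3 bases from the end. The ends of Scarna10 (its first and last 100 of 325 bases) are shown because it held the most reads, Snord17 because it held the most among Snord entries, Snord15a, Snord15b and Gm25835 because they carry both C/D boxes, Snord22 because its TPM was 0 in replicate 1, and Snord118 (U8), not a member, because it had no alignment-based count.
Scarna10, first 100 bases: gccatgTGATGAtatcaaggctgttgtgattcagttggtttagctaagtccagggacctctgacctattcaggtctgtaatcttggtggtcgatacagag
Scarna10, last 100 bases: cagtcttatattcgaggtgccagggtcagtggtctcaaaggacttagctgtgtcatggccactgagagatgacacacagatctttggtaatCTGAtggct
Snord17: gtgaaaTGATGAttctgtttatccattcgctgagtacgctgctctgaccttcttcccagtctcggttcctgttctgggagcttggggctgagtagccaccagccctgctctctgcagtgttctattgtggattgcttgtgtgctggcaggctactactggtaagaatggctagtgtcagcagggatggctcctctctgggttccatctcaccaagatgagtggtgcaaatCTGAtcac
Snord15a: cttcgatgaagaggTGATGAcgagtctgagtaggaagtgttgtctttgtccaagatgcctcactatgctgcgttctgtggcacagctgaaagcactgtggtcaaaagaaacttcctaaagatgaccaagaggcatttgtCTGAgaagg
Snord15b: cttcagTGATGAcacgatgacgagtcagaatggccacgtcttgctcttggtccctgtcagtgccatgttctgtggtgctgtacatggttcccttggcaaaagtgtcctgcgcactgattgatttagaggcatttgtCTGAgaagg
Gm25835: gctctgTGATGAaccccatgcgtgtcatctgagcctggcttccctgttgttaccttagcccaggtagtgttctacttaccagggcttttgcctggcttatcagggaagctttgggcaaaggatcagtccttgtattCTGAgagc
Snord22: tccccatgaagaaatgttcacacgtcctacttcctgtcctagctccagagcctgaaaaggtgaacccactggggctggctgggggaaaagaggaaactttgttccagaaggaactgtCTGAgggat
Snord118: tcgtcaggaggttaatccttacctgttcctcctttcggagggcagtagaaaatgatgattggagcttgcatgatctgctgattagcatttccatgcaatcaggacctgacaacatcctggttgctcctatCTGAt

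The H/ACA group below shows the U17 copies Snora73a and Snora73b, which had the most reads among Snora entries, a near-identical pair from different hosts, Gm22988 and Gm25291, and Snora26, the shortest member.
Snora73a: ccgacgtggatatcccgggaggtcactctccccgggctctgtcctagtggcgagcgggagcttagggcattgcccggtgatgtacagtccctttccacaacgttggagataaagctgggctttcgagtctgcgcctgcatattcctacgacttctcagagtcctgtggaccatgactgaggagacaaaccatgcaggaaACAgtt
Snora73b: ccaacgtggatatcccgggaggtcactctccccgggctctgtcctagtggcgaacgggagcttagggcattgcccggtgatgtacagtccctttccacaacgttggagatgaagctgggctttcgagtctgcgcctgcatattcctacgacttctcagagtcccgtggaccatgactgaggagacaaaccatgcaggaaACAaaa
Gm22988: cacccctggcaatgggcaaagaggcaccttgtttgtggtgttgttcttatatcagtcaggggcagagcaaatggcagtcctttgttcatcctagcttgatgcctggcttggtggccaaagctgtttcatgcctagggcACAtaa
Gm25291: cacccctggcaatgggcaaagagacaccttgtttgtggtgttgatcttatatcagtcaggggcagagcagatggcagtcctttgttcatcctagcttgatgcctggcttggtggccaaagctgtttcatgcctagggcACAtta
Snora26: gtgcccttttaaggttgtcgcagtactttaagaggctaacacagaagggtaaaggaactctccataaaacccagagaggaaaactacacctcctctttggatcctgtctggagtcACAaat
From Gm22988 to Gm25291 there were 4 substitutions, counted from the 5′ end: G24A, T44A, A70G and A143T. From Snora73a to Snora73b there were 7: G3A, G54A, A111G, T164C, G203A, T204A and T205A. The last 3 of these lie behind the ACA. Scarna10 lies at chr6:125186359-125186683 on the minus strand, Snord15b at chr7:99479563-99479707 and Snord15a at chr7:99482785-99482932, both on the minus strand. Gm22988 lies at chr11:69669635-69669778 and Gm25835 at chr11:69668852-69668995, on the minus strand in different introns of Eif4a1. RefSeq genes of the same assembly (GRCm38.p6) overlapped 70 of the 72 members, 52 of them with the same start and end. RefSeq gives Scarna10 only 71 bases against 325 in the annotation used for counting, calls Gm22486 Snord94 and lists Mir1949 as a microRNA.

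The motifs were read in all annotated sequences. ACA 3 bases from the end was found in 15 of 20 Snora members (83.3% of all 42 annotated). It was also found in 29 of 48 members with another symbol (17.6% of all 1367 annotated). TGATGA near the start together with CTGA near the end was found in 3 of 4 Snord members (69.4% of all 98). The same pair was found in 4 of the 48 with another symbol (17.6% of all 1367), Scarna10 and Gm25835 among them. The looser H box pattern ANANNA occurred in 71 of 72 members and in 91.5% of all annotated entries. In 21 members neither end pattern was found at these positions. The search read only the annotated strand, and a match describes letters, not a site.

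No entry shorter than 121 bases had alignment-based reads. The shortest member was Snora26 with 121 bases and the longest Scarna10 with 325, and none of the 597 shorter entries had any alignment-based count. The share of entries that were members was 6.55% at 131 to 140 bases, 24.6% at 141 to 150 and 40.0% at 201 to 330. The median annotated length was 84 bases for Snord and 132.5 for Snora entries, and 93 of the 98 Snord entries were shorter than 121 bases. The labels give a size range of 250 to 400 bases for the library, and 70 of the 72 members are annotated shorter than 250. The deposited effective length, the number of positions at which a fragment of the library could start, was 0 in both libraries for every entry up to 125 bases. Alignment-free counting of the same reads gave at least 1 count in both libraries to 360 snoRNA entries, or 23.9%, against 51.3% of all genes. Among these were 57 Snord entries, 52 of them shorter than 121 bases.

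**Figure D1:**
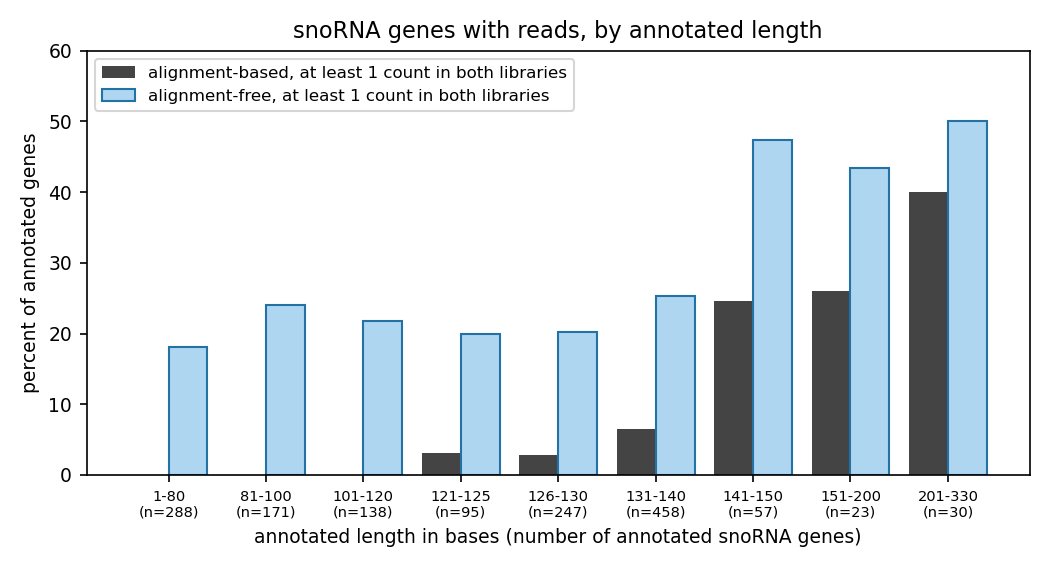
Percent of annotated snoRNA genes with at least 1 count in both libraries (y axis) in 9 ranges of annotated length in bases (x axis, with the number of genes). Dark bars are alignment-based counts and light bars alignment-free counts: the dark bars are at 0 up to 120 bases and reach 40.0% at 201 to 330 bases, while the light bars start at 18.1% in the shortest range and lie above the dark bars throughout.

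The members held 36751 counts in replicate 1 (0.200% of all counts, 95% Wilson interval 0.198% to 0.202%) and 30121 in replicate 2 (0.171%, 0.169% to 0.173%). Such intervals cover counting error only, as copies made by PCR cannot be recognised in these files. The share was higher in replicate 1 beyond counting error. Scarna10 alone held 43.3% ± 2.84 of the members' counts and the 10 members with the most counts 83.9% ± 0.593. At the other end, 31 members had a mean under 10 counts. Across the 72 members the counts of the libraries were ordered alike (Spearman's rho 0.945, Pearson's r of log2 counts 0.965, both descriptions of the same genes in libraries of one treatment). The unscaled count was lower in replicate 2 for 25 of the 30 members with the most counts, where 56.8% of all genes with at least 1 count in both libraries had the lower count there. Among the 25 are 4 identical copies of U3, Rnu3b1 to Rnu3b4, over which the same reads were split. In bulk RNA, fewer cells and less RNA per cell cannot be told apart. Nor can the RNA input (250 ng in replicate 1, 500 ng in replicate 2) be told apart from other differences between the replicates.

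**Figure D2:**
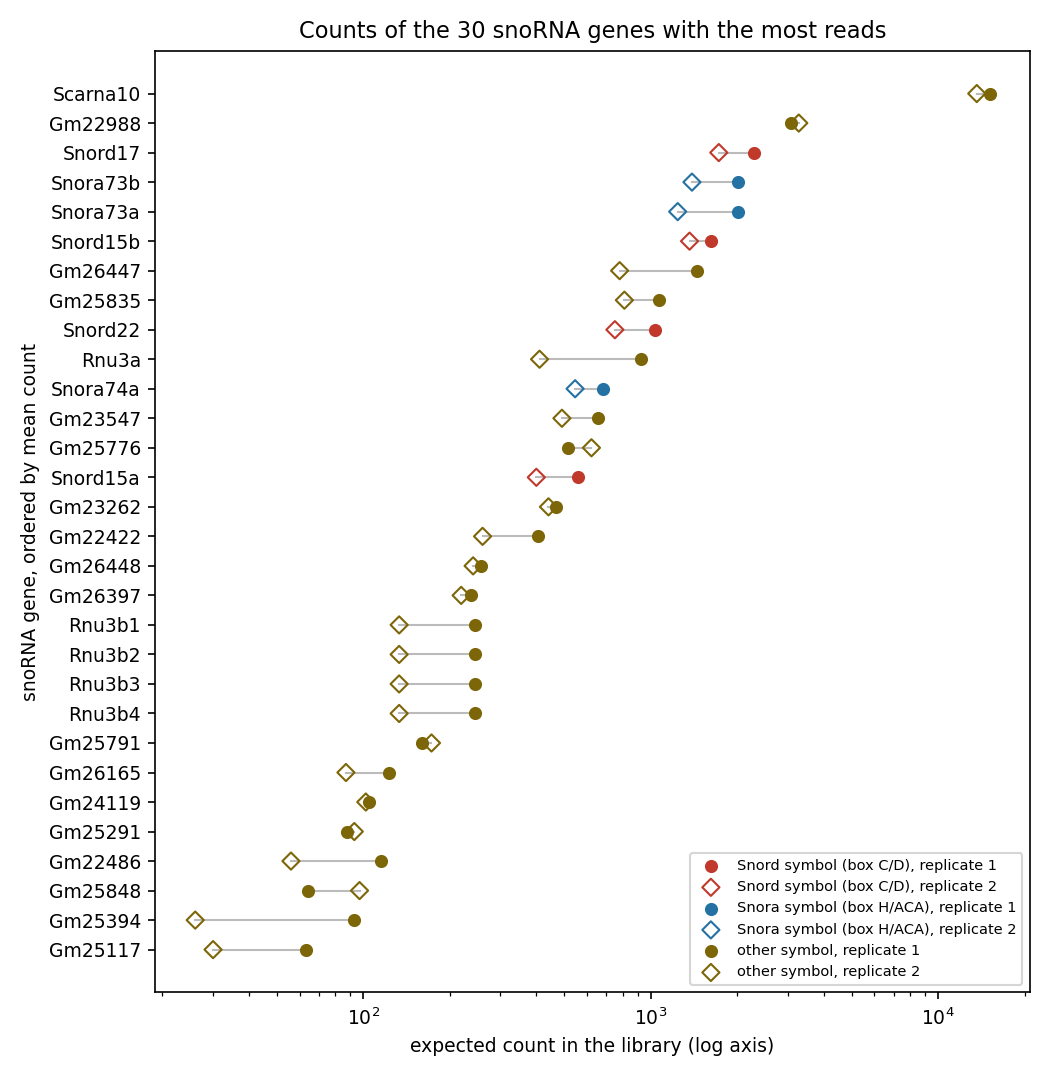
Expected counts (x axis, log scale) in replicate 1 (filled circles) and replicate 2 (open diamonds) of the 30 members with the highest mean count (y axis), coloured by class. Scarna10 stands at 15165 and 13639 counts. Of the 30 members shown, 25 have the lower unscaled count in replicate 2, the smaller library, among them the 4 identical Rnu3b copies.

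Members with a Snord symbol were few and each had many reads. The U3 entries, also box C/D RNAs, and Gm25835, which carries both boxes, have other symbols and are given further below. Snord15b, a methylation guide in an intron of the ribosomal protein gene Rps3, had 1621 and 1365 counts in replicates 1 and 2, or 10.3 ± 1.25 counts per annotated base. Snord15a from the same host had 558 and 400 counts, or 3.24 ± 0.755 per base. The libraries did not overlap between these neighbours in the same gene, Snord15b being 3.18-fold above Snord15a per base. Snord17, of 238 bases in the sorting nexin gene Snx5, had 2296 and 1726 counts, or 8.45 ± 1.69 per base. Snord22 (U22), from the noncoding host Snhg1, had 1032 and 751 counts, or 7.07 ± 1.58 per base. In all 4 the count was lower in replicate 2. Snord118 (U8), the other Snord entry of at least 121 bases, had 0 counts in both libraries at 135 bases, where the alignment-free program gave 52.0 and 54.0. Its alignment-based effective length was 1.78 and 2.12 bases, so no upper limit is read from that 0.

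Members with a Snora symbol were led by the U17 pair. Snora73b had 2019 and 1392 counts and Snora73a 2009 and 1242, or 8.32 ± 2.16 and 7.93 ± 2.65 counts per base. Their sequences are 96.6% identical, and the posterior SD that the authors deposited for each was 0.0836% and 0.0932% of its count. The copies did not differ beyond the spread between libraries. Gm26448, in the ribosomal protein gene Rpsa and 87.8% identical to Snora73b, had 257 and 241 counts, or 1.23 ± 0.0557 per base. Snora74a (U19 in RefSeq) had 681 and 546 counts, or 3.13 ± 0.487 per base. The remaining Snora members were far lower: the median over all 20 was 6.75 counts, and 12 were under 10 in the mean. Together the Snora members held 12.2% ± 1.75 of the members' counts. Gm22988, which has another symbol but ACA 3 bases from its end, had more reads than either U17 copy (3085 and 3276 counts).

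Members with another symbol held 73.3% ± 2.39 of the members' counts. Scarna10, a scaRNA in an intron of the condensin gene Ncapd2, stood at 46.7 and 42.0 counts per base in replicates 1 and 2, the highest level of any member. Gm22988 from Eif4a1 followed with 21.4 and 22.8 per base, and its range overlapped neither Scarna10 above it nor Snord15b below. From Snord15b down to Gm25835 (6.53 ± 1.29) the next 7 members overlapped with their neighbours in the order, so that their order was not resolved by these libraries. Gm25835 had 1072 and 810 counts and carries both C/D boxes, although its symbol names no class. Gm26447, in an intron of the initiation factor gene Eif4a2, had 1444 and 780 counts, or 8.62 ± 3.64 per base, with the widest relative spread among the 10 members with the most counts after Rnu3a. Below them, Gm25776 from the general transcription factor gene Gtf2a1 had 517 and 622 counts, Gm23547 from the prohibitin gene Phb2 657 and 491, and Gm23262 from Eif4g2 470 and 441. Gm22422 from Trmt10c, a subunit of the mitochondrial tRNA-processing enzyme, had 406 and 260, and Gm26397 from the mitochondrial import receptor gene Tomm20 had 237 and 219.

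Several members belong to sequence families, in which counts could be split between copies. Gm22988 has 25 other annotated entries at least 80% identical, of which 3 were members: Gm25291 in Sec24a with 90.5 ± 3.54 counts, Gm25117 in Nap1l1 with 46.5 ± 23.3 and Gm24727 in Gsr with 45.5 ± 13.4. The posterior SD was 0.0517% of the count for Gm22988 and 0 for Gm25291, with only 4 bases between them. Gm25776 and Gm25848 (80.5 ± 23.3 counts, in Fbxo45) were 89.6% identical. Scarna10 had no other entry above 80%.

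U3, the box C/D RNA that guides the first cleavages of the ribosomal precursor, was the family whose counts were least certain. Its 10 entries, named Rnu3a and Rnu3b, come in pairs with the same start and a length that differs by 1 base, so a read of the shorter entry also matches the longer. The family held 2063 counts in replicate 1 and 999 in replicate 2. The Rnu3a entry of 213 bases, at chr10:40258467-40258679 on the plus strand, had 929 and 410 counts, and its partner of 214 bases had 0 and 55.6. Rnu3b1, Rnu3b2, Rnu3b3 and Rnu3b4 are identical over 215 bases and lie in an intron span of Tex14. Each had 246 and 133 counts, with a posterior SD between 59.6% and 69.6% of the count. The alignment-free program placed these reads the other way: 0.804 and 0.00550 counts on each Rnu3b member, and 648 and 414 on each partner of 216 bases. Summed over the family it gave 5545 and 3878 counts. Both programs gave a lower sum in replicate 2, and single Rnu3 entries should be read as uncertain.

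The minimum of 1 count lay in a thinly filled range. Just inside it were Gm23297, Gm26132 and Snora57 with 1 count in each library. Snora43, Gm22362, Gm23582, Gm26175, Gm23202 and Gm25967 had 1 count in one library and up to 3 in the other. Just outside it was Snora52 with 11.0 and 0.950 counts. In all, 36 entries had at least 1 count in one library only, 6 had a count below 1 and 1393 had 0 in both.

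TPM and counts gave different pictures of the same RNAs. The deposited TPM divides a count by the effective length, whose median over the members was 2.21 bases in replicate 1 and 2.63 in replicate 2, and it was under 5 for 55 and 54 of the 72. By TPM the members held 27.7% ± 2.61 of each library, against 0.185% ± 0.0206 of the counts. With the annotated length in place of the effective length the share was 2.21% ± 0.256, and by the alignment-free TPM, whose effective lengths had a median of 24.0 in replicate 1, it was 3.19% ± 0.361. The 3 members of highest TPM were Gm22988 with 59990 ± 573, Gm26447 with 54104 ± 25277 and Snord15b with 26898 ± 4649. Gm26447 has 129 bases and an effective length of 1.17 and 1.39. Snord22 was listed at 0 TPM in replicate 1, where its effective length was 0, and at 44562 TPM in replicate 2, where it was 1.09, although its counts differed by far less. An effective length and a TPM of 0 were listed for 6 members in replicate 1 and 3 in replicate 2: Snora26, Gm24233 and Gm22786 in both, and Snord22, Snora28 and Gm23297 in replicate 1 only. Scarna10, the highest member per annotated base, had 9204 ± 885 TPM at effective lengths of 89.9 and 103.

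The programs were compared member by member. The alignment-free total of a library was larger (32760987 against 18388793 counts on annotated genes in replicate 1), and the median ratio of alignment-free to alignment-based counts over all genes with at least 1 count in both libraries was 1.92. Over the 72 members the median ratio was 2.07, and 37 had over 2 times the alignment-based count, where 46.1% of all genes did. Split by the alignment-based count, the median ratio was 7.85 in the 31 members under 10 counts and 1.82 in the 16 between 10 and 100. It was 1.21 in the 25 members of at least 100. That count is also the divisor of the ratio, so such an order is partly built in. No value over all genes is given for these bins. Of the 39 members with at least 10 counts in both libraries, 6 were past 2 times, against 37.6% of all such genes. Among members of at least 20 counts in the mean, Gm25117 had the highest ratio (3.09), followed by Gm26079 (2.26), Gm25791 (2.16), Gm25848 (2.05) and Snora68 (2.00). Apart from the Rnu3b copies, Gm22988 had the lowest (1.07) and Scarna10 the next (1.10). A posterior SD over 10% of the count was found in 9 members, where 5.39% of all genes had one. Rnu3a and the 4 identical Rnu3b copies are among the 9.

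**Figure D3:**
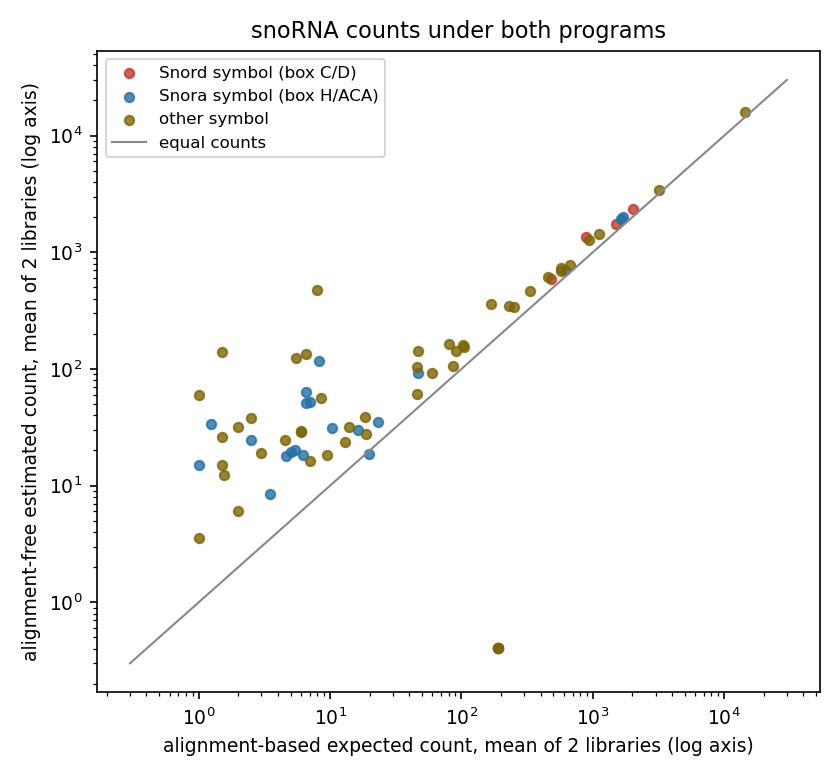
Mean count of the 72 members under the alignment-based (x axis) and the alignment-free program (y axis), both on log scales, coloured by class, with a line of equal counts. Members of at least 100 counts lie near the line (median ratio 1.21), those under 10 counts lie above it (median ratio 7.85), and the 4 identical Rnu3b entries form 1 point far below it.

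Replicates were compared by the log2 ratio of TMM-scaled counts, replicate 2 over replicate 1. The median ratio of the members was -0.34, against 0.02 over all 18444 genes with at least 1 count in both, and 46 of 72 members were below 0, where 48.6% of all genes were. With at least 10 counts in both libraries 27 of 39 members were below 0, against 49.7% of such genes. The 46 and the 27 both include the 4 identical Rnu3b copies (each -0.75), so 1 split value is counted 4 times there. Past 2-fold were 22 members, 7 higher and 15 lower in replicate 2, where 16.8% of all genes were past it, 9.11% higher and 7.64% lower. With at least 10 counts in both libraries, 3 of 39 members were past it, all lower in replicate 2, against 7.29% of such genes either way, 4.08% higher and 3.21% lower. Those were Snora68 with 76.8 and 15.8 counts (log2 ratio -2.13, 95% Clopper-Pearson counting interval -3.01 to -1.34), Gm25394 in the isoleucyl-tRNA synthetase gene Iars, with 93.0 and 26.0 (-1.71, -2.39 to -1.07), and the Rnu3a entry of 213 bases (-1.05, -1.22 to -0.88), whose interval spans the 2-fold line. Summed with its partner of the same start, Rnu3a was at -0.86, which is not past 2-fold. The other 33 members had under 10 counts in at least 1 library, and 19 of them were past 2-fold, where 40.8% of all genes with such counts were. The range of the members' mean counts takes in 18347 of the 18444 genes, so the share past 2-fold within it, 16.8%, is that of nearly the same genes and no match for members of low count. Among members of at least 20 counts in the mean, next came Gm25117 (-0.94), Gm22486 (-0.91) and Gm26447 (-0.76). On the other side, Gm24727 with 36.0 and 55.0 counts (0.74) and Gm25848 with 64.0 and 97.0 (0.73) were the highest, then Gm25776 (0.40), Gm25791 (0.24), Gm22988 (0.22) and Gm25291 (0.21). Mir1949, picked after its values were seen and below the mean of 20 counts that these ratios required, had 33.6 and 3.75 counts (-2.95). With 1 library on each side no p-value was computed. The summed macrophage markers also took unequal shares of the libraries (0.201% of counts in replicate 1 and 0.107% in replicate 2). The difference was uneven over the list: Adgre1 had 16807 and 6321 counts, Csf1r 7943 and 3950, Mertk 5297 and 4633, and Cd68 424 and 410. Cd14 alone had the higher unscaled count in replicate 2 (871 and 1284). The part of these markers in the ratios was not tested.

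**Figure D4:**
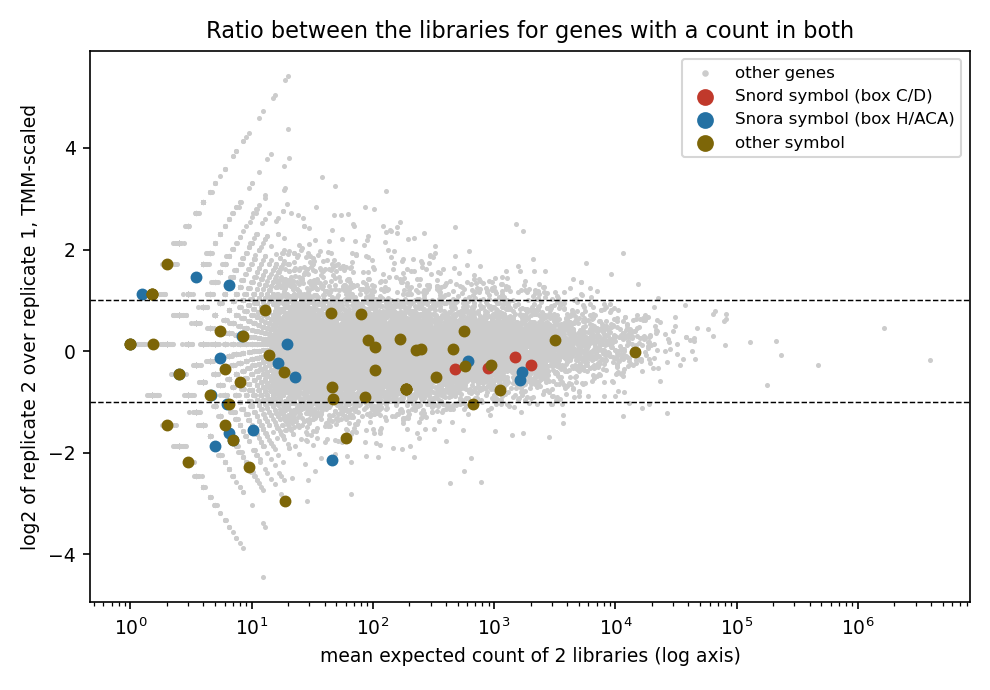
Log2 ratio of TMM-scaled counts between the libraries (y axis) against the mean count (x axis, log scale) for 18444 genes with at least 1 count in both. Grey points are other genes and coloured points the members by class, with dashed lines at 2-fold: 3 members with at least 10 counts in both libraries lie below the lower line and none above the upper.

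Nearly all members lay inside another gene. On the same strand 66 of 72 were contained in 53 host genes, where 44.2% of all annotated snoRNA genes have such a host. Of the annotated entries of at least 121 bases, 66 of 258 inside a host were members (25.6%) and 6 of 652 outside one (0.920%). By the annotated gene type, protein-coding hosts held 54 members and long noncoding hosts 12. The latter include the 2 members in Cct6a, which this annotation lists as a processed transcript. Ribosomal protein genes held 10 members, and genes of translation initiation factors or the poly(A)-binding protein held 9. Each of the 66 lay in an intron of at least 1 transcript of its host, of median length 888.5 bases, and 17 were also overlapped by an exon of another transcript, 12 of them by a retained intron, so reads of host and snoRNA may be split by the counting. Of the 53 hosts, 50 had at least 1 TPM in both libraries.

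Counts per base of a member and its host had a Spearman's rho of 0.0100 (over 66 members, some of which share a host). Of the 65 members whose host had a count, 31 were above their host, 17 of them over 10-fold, and the median of the log2 ratio was -0.21. That median turned with the minimum, to 2.55 over members of at least 10 counts in both libraries, and it was 0.0852 without replicate 2. Of 24 members with a mean of at least 100 counts, 20 were above their host, and of 26 under 10 counts 3 were. The member's own count sets these groups and the minimum, and it is also the numerator of the ratio. Both the split and the turn of the median are therefore partly built in. The 31, the 17 and the 20 all include the 4 identical Rnu3b copies, each 185-fold above Tex14. Their counts are 1 uncertain value split over 4 entries. Scarna10 was 1222-fold above Ncapd2, which had 114 and 84.0 counts, and Snora73b 236-fold above Snhg3, which had 12.9 and 20.6. The 4 Snord members lay between 10.8-fold and 53.9-fold above their hosts. Gm23262 was below its host Eif4g2 (0.614-fold) despite 455 ± 20.7 counts.

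**Figure D5:**
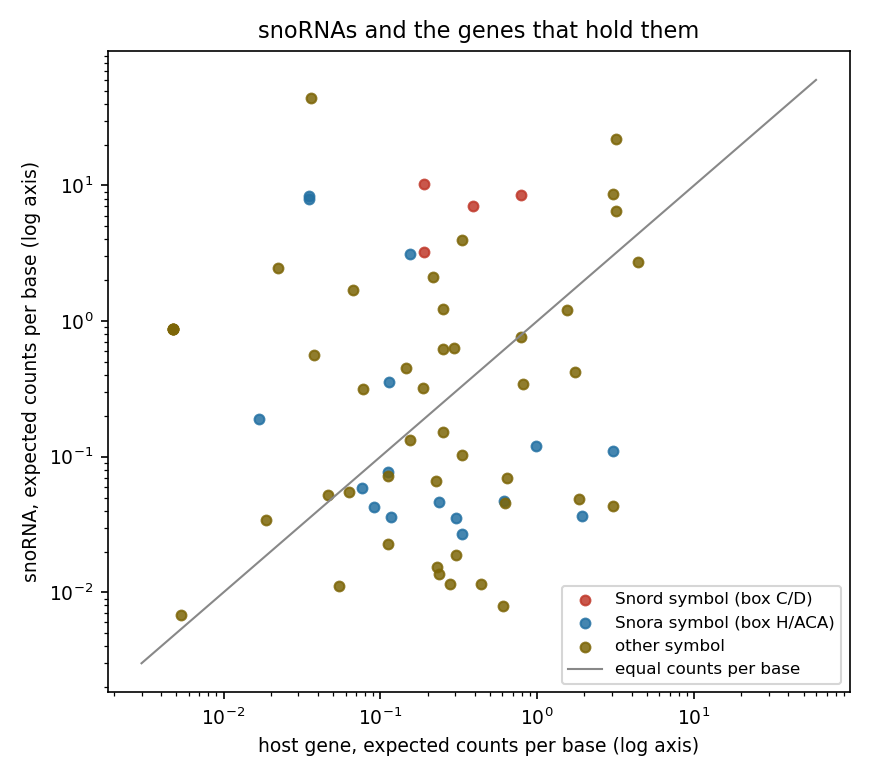
Expected counts per base, mean of the libraries, of 65 members (y axis) and of the host gene around each (x axis), both on log scales, coloured by class, with a line of equal values. Members lie on both sides of the line, 31 above it, and the topmost is Scarna10 at 44.3 counts per base.

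In 10 hosts there was more than 1 member, and members of the same host could differ widely. Eif4a1 held Gm22988 and Gm25835, which differed 3.38-fold per base. In Eif4a2, Gm26447 stood at 8.62 counts per base, Snora81 at 0.111 and Gm24616 at 0.0432, a 200-fold range. Snx5 held Snord17 and Gm26165 (11.1-fold apart), Rps3 the Snord15 pair, Snhg3 the Snora73 pair (1.05-fold apart) and Tex14 the Rnu3b copies. The host named AC121821.1 held Snora74a and Mir1949 (23.6-fold apart). Cct6a, Pabpc4 and Ipo7 each held a pair of members with low counts, 1.88-fold to 3.88-fold apart. In all, the 53 hosts contain 100 annotated snoRNAs, and 34 of these were not members, 15 of them shorter than 121 bases.

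Named groups of snoRNAs were followed with both programs. Of 9 matched RNAs of precursor processing, Snora73a, Snora73b and Snord22 were members, and 8 had alignment-free counts in both libraries. U3 is not among these 9, as its listed symbol Snord3a did not match. Its 10 Rnu3 entries, 5 of them members, are described above. Snord13, a guide of base acetylation in ribosomal RNA, had 26.0 and 31.0 such counts at 104 bases, and the Snord14 copies of Hspa8 had 80.2 ± 13.8 (Snord14c), 89.3 ± 9.50 (Snord14d) and 3.64 ± 2.97 (Snord14e), while Snord14a of Rps13 was listed at 0. The 4 snoRNAs of Rpl13a, known for their response to lipid stress, had no alignment-based count, and alignment-free counts of 142 ± 7.07 for Snord32a, 45.5 ± 10.6 for Snord34, 27.5 ± 12.0 for Snord35a and 24.3 ± 6.75 for Snord33. Of the Gas5 group, Snord47 had 61.3 ± 1.08 alignment-free counts, the Snord80 entries had 0 in replicate 1, and Snord78 had 0 in both. Of the Snhg1 list only Snord22 matched by symbol, and 7 symbols did not. Snhg1 contains 7 further annotated snoRNAs under other symbols, of 65 to 76 bases. All of them had 0 alignment-based counts, and the highest alignment-free count among them was 3.91 (Gm24453, replicate 1). The 19 matched entries of the imprinted clusters (Snord116, Snord64 and Snord107) had 0 counts in both programs. At 67 to 94 bases they lie in the range where no entry had an alignment-based count. The other Snord families listed for these clusters matched no entry.

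Proteins of the snoRNA particles stabilise, modify and trim the RNA. Of 24 matched genes, 20 had at least 1 TPM in both libraries, where 40.1% of protein-coding genes did. The median over these 24 genes of the 2-library mean was 3.45 TPM, and the medians within replicates 1 and 2 were 3.12 and 3.04. The 8829 protein-coding genes that passed this level had a median of 9.37 TPM (9.51 and 9.14 within the libraries). The level was not required of the 24, some of which fell short of it, so these medians are no like-for-like comparison. All protein-coding genes together held 25.9% and 27.98% of the TPM in replicates 1 and 2. The C/D core had a median of 14.2 TPM (14.8 and 13.5 within the libraries): Nop56 with 21.3 ± 4.21 and Nop58 with 16.8 ± 1.09, which form its scaffold, the methyltransferase Fbl with 11.6 ± 0.721, and Snu13, which binds the RNA first, with 3.93 ± 0.594. The H/ACA core had a median of 3.29 TPM (3.44 and 2.72): Gar1 with 4.71 ± 0.700, the pseudouridine synthase Dkc1 with 4.01 ± 1.48, Nhp2 with 2.57 ± 0.127 and Nop10 with 0.645 ± 0.0354. Gar1 and Dkc1 changed order between the libraries. Snu13 thus lay within the range of the H/ACA core, and the other C/D proteins above it. By alignment-free TPM this was not so: Snu13 had 11.6 and 11.1, above Dkc1, the highest of the H/ACA core, with 9.62 and 6.42. Assembly factors had a median of 2.29 TPM (2.42 and 2.04), led by Pih1d1 (4.92 ± 0.502), Nolc1 (2.42 ± 0.368), Nufip1 (2.38 ± 0.304) and Ruvbl1 (2.32 ± 0.566), with Naf1 lowest in the mean (0.740 ± 0.0566). In replicate 2 Rpap3 was lower (0.480 TPM), and the order of the genes next below Pih1d1 changed between the libraries. Processing factors had a median of 4.33 TPM (4.99 and 4.25), led by the cap trimethylase Tgs1 (30.3 ± 2.91), the nuclear exosome nuclease Exosc10 (23.5 ± 1.20), the poly(A) polymerase Tent4b (4.48 ± 1.91) and Dis3 (4.18 ± 0.0354), with the lariat debranching enzyme Dbr1 lowest in the mean (3.36 ± 1.33). Dbr1 was lowest in replicate 1 only (2.42 TPM). In replicate 2 it stood at 4.30, above Dis3, Parn and Tent4b, and by alignment-free TPM Tent4b was lowest in the mean (5.66 and 3.64). Between the libraries, Rpap3 (34 and 15 counts) and Ruvbl2 (27 and 12) were past 2-fold, both lower in replicate 2, against 6.77% of protein-coding genes with a count in both.

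Depth and cell markers were read over the whole libraries. Replicate 1 had 18388793 and replicate 2 had 17640464 expected counts on annotated genes. All 8 macrophage markers reached 1 TPM in both libraries, and the T-cell, neutrophil and mast-cell markers were at 0. The B-cell list of 3 summed to 2 and 1 counts, the erythroid list of 2 to 0 and 1.97, and the fibroblast list of 3 to 33 and 65. The nuclear RNAs Malat1 and Neat1 together took 8.68% of the counts in replicate 1 and 11.2% in replicate 2. The mitochondrially encoded genes together took 0.0482% and 0.0323%.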

How the data were processed

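RNA of the chromatin fraction was sequenced in 2 libraries. The deposited expected counts per gene came from alignments to mm10 with GENCODE M21, per the submitters' description files, under column names of RSEM, and the deposited estimated counts per transcript from a program without alignment, under column names of kallisto, per the file headers. The authors divided by effective length to give TPM. Versions and strand setting: not given in the sources used here. Whether reads on opposite strands of a locus were counted apart is therefore unknown. The alignment-free values were summed per gene. Coordinates and sequences came from GENCODE M21 of the same build. A host is a gene of another class containing the snoRNA on its strand, the shortest where several did, and its counts were divided by the deposited length. Rounded counts were scaled by TMM (edgeR 4.0.16, R 4.3.3), with ratios read without a test. A simulation drew counts with counting error only and scaled them by total counts, so it did not test the TMM step. Members and lists were chosen with earlier results of these data known. Named are the 20 members of highest count, 6 of largest ratio each way between libraries and 5 between programs (mean of at least 20 counts), the 3 of highest TPM, those next to the minimum of 1 count, fixed groups, the highest 4 and the lowest gene of each protein list, and hosts of 2 or more members. Alternatives were other minimums, scalings, programs and lengths. The symbols Snord3a, Papd5 and Nopchap1 and 14 of the Gas5 and Snhg1 groups did not match.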

Additional observations from a re-analysis of the deposited data

How the results depend on the processing

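No paired analysis was possible because there was 1 group, with no other group to share replicate numbers. The number of members depended on the minimum and the program: 44 with at least 5 counts in both libraries, 39 with at least 10 and 360 by alignment-free counts, and 85 to 95 when 1 library was left out. By symbol, the Snord members were 57 by alignment-free counts, and the Snora members 8, 7 and 32 under the same 3 settings. The others were 28 with at least 10 counts and 271 by alignment-free counts. The members' share of counts was 0.127% by alignment-free counts. Their share of TPM was 3.19% by alignment-free TPM and 2.21% with annotated lengths, and their median TPM moved from 391 to 82.3, to 17.4, and to 1963 with at least 10 counts. Members past 2-fold between the libraries numbered 3 with at least 10 counts and 8 by alignment-free counts. The median log2 ratio stayed below 0, at -0.41 with total-count scaling, -0.29 with at least 10 counts, -0.33 with 0.5 counts added and -0.16 by alignment-free counts. The median log2 of member over host reversed to 2.55 with at least 10 counts, a minimum set on the numerator itself. It ranged from -0.16 to 0.0852 when 1 library was left out. Members over 2 times in the alignment-free program were 6 with at least 10 counts. The median of the particle protein genes moved from 3.45 TPM to 6.67 by alignment-free TPM and 12.8 over protein-coding genes alone, and to 3.04 to 3.12 for single libraries; the cause was not tested for these changes. Of 65 alternative values, 37 stayed within the spread or within 1.5 times. With 2 libraries of 1 condition, no effect of the treatment can be read, and with 31 members under 10 counts their ratios rest on few reads.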

Other observations

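Of the 360 snoRNA entries with alignment-free counts in both libraries, 292 were not members. Besides the longer Rnu3 entries, the highest of them, picked after their values were seen, were Gm24339, a 76-base entry inside Cep295 with 764 and 813 alignment-free counts in replicates 1 and 2 (789 ± 34.6, SD, n = 2), and Snord21, a 94-base box C/D entry in the ribosomal protein gene Rpl5, with 406 and 607 (506 ± 142). Both had 0 alignment-based counts and an effective length of 0. Gm23722, of 130 bases in Rnf149, had 333 ± 86.3 alignment-free counts against 0 and 1 alignment-based counts. Gm22357, of 83 bases in the noncoding host Gas5, had 243 ± 2.29, Snord89 143 ± 14.1 and Snord83b, in the ribosomal protein gene Rpl3, 136 ± 39.6. Apart from Rnu3a, the entries outside a host were led by Gm24500 (124 bases, 236 ± 22.6). Which of the programs is nearer to the RNA present was not tested.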
